A study of Homo sapiens with 4 samples.

Results

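The clustered protocadherins are cell surface adhesion proteins encoded by 3 neighbouring gene clusters, alpha, beta and gamma, on chromosome 5. The members described here are the protein-coding genes of the deposited tables whose identifiers GENCODE release 29 names PCDHA, PCDHAC, PCDHB, PCDHGA, PCDHGB or PCDHGC followed by a number. They came to 53 genes of the 58174 in each table, with 15 in the alpha, 16 in the beta and 22 in the gamma cluster. Their RNA was measured by sequencing 4 libraries from 293FT cells, an immortal line of human embryonic kidney origin that expresses the large T antigen of SV40. The 2 NIPBLmut libraries carry a mutation in NIPBL, the gene of the protein that loads cohesin onto chromosomes, and the 2 NIPBLwt libraries are of the same line with wild-type NIPBL. The kind of mutation, the number of clones and any further treatment are not given in the labels. The labels also do not say whether the libraries of a group came from separate cultures, so the p-values below reflect only how these libraries vary, and that variation may be technical.

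Each gene of the alpha and gamma clusters has a large first exon of its own behind its own promoter. That variable exon codes for the whole outer part, the membrane span and a short stretch inside the cell, and is spliced to small constant exons that all genes of the cluster share. Beta genes carry no constant exons. A neuron uses a small and largely random set of these promoters, and the resulting mix of proteins lets its branches recognise one another and keep apart. The C-type genes PCDHAC1, PCDHAC2, PCDHGC3, PCDHGC4 and PCDHGC5 lie at the ends of the alpha and gamma clusters and are used less randomly than the others. CTCF and cohesin bring distant enhancers to the promoters in use, which is why the clusters are a common subject where a cohesin loader is mutated.

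The 53 genes lay between 140786136 and 141512981 on chromosome 5 (GENCODE release 29, GRCh38), all on the plus strand. Library totals were 31932304 and 32768728 expected counts in NIPBLmut replicates 1 and 2, against 31545743 and 33161120 in NIPBLwt replicates 1 and 2. An expected count is the estimate by RSEM of the reads of a gene and need not be whole, because a read that matches several genes is divided among them. CPM are counts scaled to a common library size by the trimmed mean of M values (TMM), and TPM are the authors' abundances corrected for transcript length. At this depth 1 count was worth between 0.0287 and 0.0335 CPM. The NIPBLmut pair was closer than the NIPBLwt pair, with a chi-square per gene of 3.97 in NIPBLmut and 45.5 in NIPBLwt, where 1 is sampling noise alone. It was taken over tested genes with enough counts in the pair and scaled by total counts, not by TMM. The TMM factors differed more in the NIPBLwt pair (0.984 and 0.902) than in the NIPBLmut pair (1.060 and 1.063).

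Shared exons set the limit on every value for a single member. In the annotation, all 15 alpha genes hold the same constant exons of 59, 89 and 2718 bases, and all 22 gamma genes in constant exons of 59, 89 and 2033 bases. The first alpha constant exon starts at 140978949 and the first gamma one at 141494807. The sequences below show what a read must hold to name its gene. Each line joins the last 33 bases of the variable exon, in lower case, to the first 33 bases of the constant exon, in capitals, read on the plus strand from the GENCODE transcripts. The genes shown are the 4 with the highest mean CPM in each of these clusters.
PCDHAC2: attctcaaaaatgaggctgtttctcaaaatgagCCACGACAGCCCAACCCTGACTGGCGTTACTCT
PCDHA10: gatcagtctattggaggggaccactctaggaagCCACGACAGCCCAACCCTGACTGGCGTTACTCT
PCDHA11: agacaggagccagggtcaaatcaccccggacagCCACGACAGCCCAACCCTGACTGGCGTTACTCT
PCDHAC1: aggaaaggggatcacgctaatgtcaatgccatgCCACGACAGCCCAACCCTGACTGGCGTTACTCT
PCDHGC3: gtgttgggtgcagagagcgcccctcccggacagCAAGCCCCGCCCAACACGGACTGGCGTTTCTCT
PCDHGA11: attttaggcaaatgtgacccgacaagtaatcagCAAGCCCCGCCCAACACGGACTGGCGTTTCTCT
PCDHGC4: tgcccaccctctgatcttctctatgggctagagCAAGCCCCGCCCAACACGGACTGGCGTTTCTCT
PCDHGA1: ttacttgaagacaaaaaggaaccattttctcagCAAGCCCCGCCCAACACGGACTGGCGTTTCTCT
The capitals are the same within a cluster, so a read that lies wholly in them cannot name a gene. The lower-case ends differed in all 15 alpha and all 22 gamma genes, with between 6 and 30 of 33 bases identical between pairs of alpha genes and between 4 and 29 between pairs of gamma genes. Between the clusters, the first constant exons were identical at 39 of 59 bases and the second at 29 of 89.

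Deposited lengths exceeded effective lengths by 65 bases in all 53 members, which corresponds to a read window of 66 bases. Over all annotated transcripts of a gene, between 38.8% and 78.0% of such windows in alpha genes occurred in no other gene read in the same direction. The range was 57.7% to 99.8% in beta genes and 30.2% to 67.8% in gamma genes. Matches to the opposite strand of another gene were not taken off, and made up at most 14.6% of windows (PCDHB5). Windows shared with another member made up a median of 47.2% in alpha, 10.0% in beta and 43.6% in gamma genes. No window was shared between clusters. The deposited values carried the trace of this division, since 53 of the 145 member values above 0 were whole (within 0.005). Summed over all rows named as PCDHA, PCDHB or PCDHG, pseudogenes included, 11 of the 12 sums of a cluster in a library were whole again (within 0.02). Reads were thus divided within a cluster, and the sum of a cluster depends less on that division than a member value does.

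**Figure D1:**
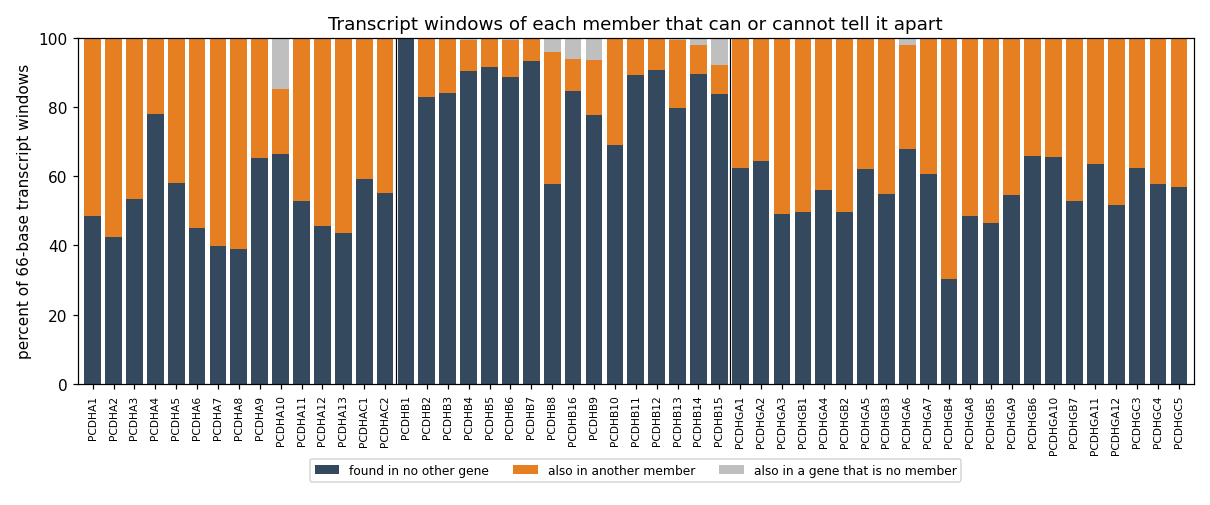
Percent of the 66-base windows of each member's annotated transcripts (vertical axis) for the 53 members in chromosomal order, alpha left, beta in the middle and gamma right. Dark bars are windows found in no other gene read in the same direction. Orange bars are windows also in another member, and grey bars windows also in a gene that is no member. Dark bars reach at most 78.0% in alpha and 67.8% in gamma but up to 99.8% in beta genes.

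Of 31 other annotated rows at the locus, 18 share windows with a member on either strand, and none of those 18 had more than 5 counts in any library. Of the rest, which share no window with a member, 2 had more than 5 counts, TAF7 and the long noncoding RNA AC005618.1. PCDHA14, a pseudogene, shares 2233 of the 15222 windows of PCDHA10 and had 2.50 and 0.56 counts in NIPBLmut, against 0 and 0 in NIPBLwt. The strand setting of the counting is not given in the sources used here, so reads of a member and of an antisense row on the same exons may not have been told apart.

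Clustered protocadherin RNA was scarce in these cells. Of the 53 members, 2 (PCDHA2 and PCDHB7) had 0 counts in every library, and 24 had at most 3 counts in every library. A count of 0 allows up to 3 counts, or 0.0862 to 0.100 CPM, and such limits cover counting error only. Members above 0 numbered 34 and 35 in the NIPBLmut libraries, against 42 and 34 in the NIPBLwt libraries. At least 10 counts in every library were reached by 7 members, 4 of them alpha, 1 beta and 2 gamma. PCDHGC3 had the highest mean level per length at 0.880 TPM over the 4 libraries, and 77.9% of the 18984 genes tested were above that. In bulk RNA, fewer cells that use a gene and less RNA per cell cannot be told apart.

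**Figure D2:**
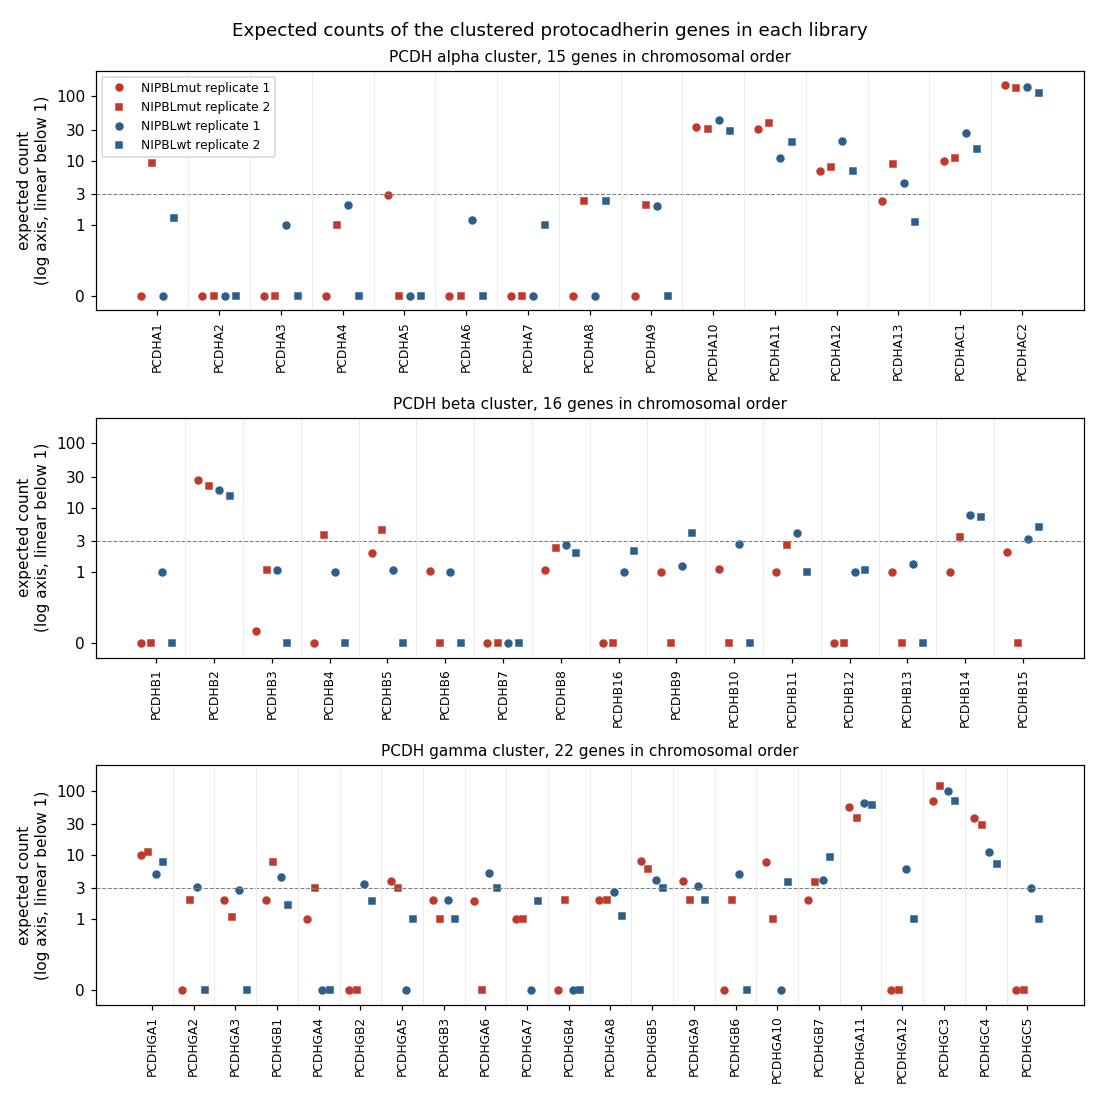
Expected counts (vertical axis, logarithmic above 1 and linear below) of each member in NIPBLmut (red) and NIPBLwt (blue), with circles for replicate 1 and squares for replicate 2; the dashed line marks 3 counts. Each cluster has 1 to 4 genes with at least 10 counts in every library, at the right end of alpha and gamma and at PCDHB2, while 43 of the 53 genes stay under 10 in every library.

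The cluster sums were close between the genotypes for alpha and gamma. The 15 alpha genes together had 235 and 249 counts in NIPBLmut, against 251 and 188 in NIPBLwt. As CPM this was 7.05 ± 0.158 in NIPBLmut and 7.19 ± 1.27 in NIPBLwt (SD, n = 2 each), and the NIPBLmut values lay between the NIPBLwt values. The 22 gamma genes together had 210 and 234 counts in NIPBLmut, against 227 and 175 in NIPBLwt. That was 6.47 ± 0.360 CPM in NIPBLmut and 6.59 ± 1.03 CPM in NIPBLwt, again with both NIPBLmut values inside the NIPBLwt range. The log2 ratio of NIPBLmut over NIPBLwt was -0.029 for alpha and -0.027 for gamma, and total-count scaling gave 0.13 and 0.14.

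The 16 beta genes were the least abundant, with 38 and 39.9 counts in NIPBLmut, against 49 and 37.9 in NIPBLwt. Their summed level was 1.13 ± 0.0151 CPM in NIPBLmut and 1.42 ± 0.221 CPM in NIPBLwt. Both NIPBLmut values were below both NIPBLwt values, with a log2 ratio of -0.33, but the sign was the other way in summed TPM, where the log2 ratio was 0.26. No test was run on the sums.

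**Figure D3:**
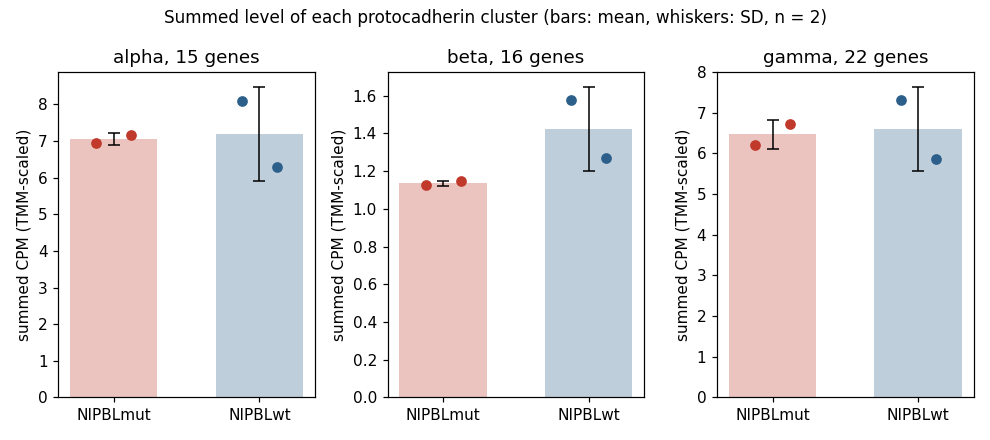
Summed TMM-scaled CPM (vertical axis, from 0, a scale of its own in each panel) of the alpha, beta and gamma clusters in NIPBLmut (left) and NIPBLwt (right); points are libraries, bars means and whiskers the SD of 2 libraries. In alpha and gamma the NIPBLmut points lie between the NIPBLwt points, and in beta they lie below them.

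Within the sums, members were tested in a fit across all genes. Only 9 of the 53 members had enough counts to be tested, so the counts below are not counts over the family. None of the 9 was called higher or lower by edgeR at an adjusted p under 0.05, against 5.81% of all 18984 tested genes and 5.99% of the 6414 tested genes in the same range of mean CPM. At an unadjusted p under 0.05 there were 2, PCDHGC4 and PCDHAC1, against 29.8% of all tested genes, and DESeq2 called 0 of the 9, against 13.2% of all tested genes. Without a filter on low counts 51 members could be tested and 0 were called, against 5.73% of all genes then tested. The log2 fold changes were above 0 in 5 and below 0 in 4, with a median of 0.0035, against -0.0055 over all tested genes. The median SE of the 9 was 0.37, against 0.20 over all tested genes. The NIPBLmut and NIPBLwt libraries did not overlap in CPM at 6 of the 9, against 63.2% of all tested genes.

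**Figure D4:**
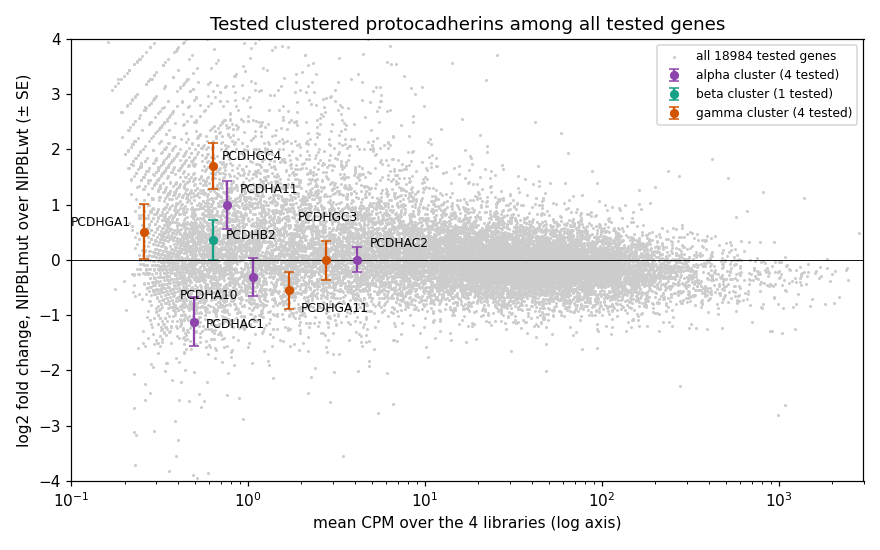
Log2 fold change of NIPBLmut over NIPBLwt (vertical axis) against mean CPM over the 4 libraries (horizontal, logarithmic) for the 9 tested members, with SE as whiskers, over all tested genes in grey; 120 genes beyond 4 log2 units are not drawn. The members sit at the low end of the levels, with PCDHGC4 highest at 1.69 and PCDHAC1 lowest at -1.12, and neither was called.

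In the alpha cluster, counts were concentrated at the end next to the constant exons. PCDHAC2 (ENSG00000243232, 140966235 to 141012344), the C-type gene nearest to those exons, had 147 and 137 counts in NIPBLmut, against 140 and 112 in NIPBLwt. The genotypes overlapped, at 4.15 ± 0.298 CPM in NIPBLmut and 4.13 ± 0.533 CPM in NIPBLwt (SD, n = 2 each). Their log2 fold change came to 0.0035 (SE 0.22, edgeR adjusted p = 0.993), with a sign that turned under several settings. PCDHA10 (ENSG00000250120, 140855883 to 141012344), one of the randomly chosen genes, had 33.8 and 30.8 counts in NIPBLmut, against 43.3 and 28.6 in NIPBLwt. Its groups overlapped, with a log2 fold change of -0.31 (SE 0.34, edgeR adjusted p = 0.575).

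PCDHA11 and PCDHAC1 leaned in opposite directions without being called. PCDHA11 (ENSG00000249158, 140868183 to 141012344) had 31.0 and 39.0 counts in NIPBLmut, against 10.9 and 19.7 in NIPBLwt. Both NIPBLmut libraries were above both NIPBLwt libraries, with a log2 fold change of 0.99 (SE 0.43, edgeR adjusted p = 0.192), which became 0.63 with the deposited effective lengths as offsets. Without NIPBLwt replicate 2 it was 1.51, and without NIPBLwt replicate 1 it was 0.59. PCDHAC1 (ENSG00000248383, 140926369 to 141012344), the other alpha C-type gene, had 10 and 11 counts in NIPBLmut, against 26.4 and 15 in NIPBLwt. Both NIPBLmut libraries were below both NIPBLwt libraries, with a log2 fold change of -1.12 (SE 0.44, edgeR adjusted p = 0.165). It was -0.72 without NIPBLwt replicate 1, and -1.44 without NIPBLwt replicate 2. In 3 of these libraries, NIPBLwt replicate 1 being the exception, the deposited length of PCDHAC1 was 4077 bases, that of its transcript ENST00000409700, of whose windows 100% occur in no other gene. The reads counted for PCDHAC1 there were thus assigned to a transcript without shared windows. In NIPBLwt replicate 1 the length was 4558 bases, so the assignment differed. Whether constant-exon reads of its other transcript were counted for other members cannot be seen from the length.

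The other 11 alpha genes held 12.2 and 31.3 counts together in NIPBLmut, against 30.7 and 12.7 in NIPBLwt. The highest single value among them was 20 counts, for PCDHA12 in NIPBLwt replicate 1, and 8 of the 11 had at most 3 counts in every library.

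In the beta cluster, PCDHB2 (ENSG00000112852, 141094578 to 141098703) was the only gene tested. It had 26.6 and 22.0 counts in NIPBLmut, against 18.9 and 15.4 in NIPBLwt. Both NIPBLmut libraries were above both NIPBLwt libraries, by a narrow margin, with a log2 fold change of 0.36 (SE 0.37, edgeR adjusted p = 0.555). It became 0.92 with effective length offsets (edgeR adjusted p = 0.263). The deposited length of PCDHB2 was 2202 and 2940 bases in NIPBLmut, against 3315 and 4126 bases in NIPBLwt. PCDHB14 had 1 and 3.51 counts in NIPBLmut, against 7.76 and 7.23 in NIPBLwt. PCDHB15 had 2.05 and 0 counts in NIPBLmut, against 3.24 and 5.08 in NIPBLwt, and PCDHB11 had 1 and 2.63 in NIPBLmut, against 4 and 1 in NIPBLwt. These 3 were under the level needed for a test. None of the other 12 beta genes passed 4.57 counts in any library.

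In the gamma cluster the C-type gene PCDHGC3 (ENSG00000240184, 141475947 to 141512979) led. It had 68.7 and 119 counts in NIPBLmut, against 98.5 and 69.7 in NIPBLwt. The spread within each genotype was wider than the difference between them, with a log2 fold change of -0.011 (SE 0.35, edgeR adjusted p = 0.987). PCDHGA11 (ENSG00000253873, 141421047 to 141512979) had 56.5 and 37.3 counts in NIPBLmut, against 63.5 and 58.9 in NIPBLwt. Both NIPBLmut libraries were lower in CPM, with a log2 fold change of -0.55 (SE 0.33, edgeR adjusted p = 0.314), which was -0.93 without NIPBLmut replicate 1 and -0.26 without NIPBLmut replicate 2.

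In counts, PCDHGC4 had the largest fold change of the 9 tested members in the fit of all libraries, though it missed the threshold. PCDHGC4 (ENSG00000242419, 141484997 to 141512979) is the C-type gene whose protein, in mouse studies, reaches the cell surface only together with other protocadherins and is needed for neurons to survive. It had 37.2 and 29 counts in NIPBLmut, against 11 and 7.22 in NIPBLwt. Both NIPBLmut libraries held more than both NIPBLwt libraries, at 0.967 ± 0.190 CPM in NIPBLmut and 0.298 ± 0.0799 CPM in NIPBLwt (SD, n = 2 each). The difference amounted to a log2 fold change of 1.69 (SE 0.42, edgeR adjusted p = 0.0715). DESeq2 gave 1.70 with an adjusted p of 0.165. Leaving out 1 library at a time gave log2 fold changes of 1.43 to 2.01, with 1.48 without NIPBLmut replicate 1. The gene passed the threshold when a NIPBLwt library was left out, where the spread comes from the closer NIPBLmut pair alone. A large part of all tested genes was called in those fits, so the call does not set PCDHGC4 apart. PCDHGC4 did not pass when a NIPBLmut library was left out, where the spread comes from the wider NIPBLwt pair.

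The transcripts that the PCDHGC4 reads were assigned to also differed. The deposited length of the gene was 3295 and 2793 bases in NIPBLmut, against 1755 and 1518 bases in NIPBLwt. The value of 2793 bases in NIPBLmut replicate 2 is that of the single transcript ENST00000617094, of whose windows 100% occur in no other gene. Per length, PCDHGC4 was at 0.30 and 0.27 TPM in NIPBLmut, against 0.16 and 0.12 TPM in NIPBLwt, which is 2.04-fold in TPM. With effective length offsets the fitted log2 fold change was smaller, at 0.79 (SE 0.43, edgeR adjusted p = 0.281), and PCDHAC1 (-1.02) and PCDHB2 (0.92) were then further from 0.

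PCDHGA1 (ENSG00000204956, 141330571 to 141512981), the first gamma gene, had 10 and 11 counts in NIPBLmut, against 5 and 7.76 in NIPBLwt. The groups did not overlap, with a log2 fold change of 0.51 (SE 0.50, edgeR adjusted p = 0.529). PCDHGC5, the last gamma gene, had 0 and 0 counts in NIPBLmut, against 3 and 1 in NIPBLwt, all within the 3 counts that a count of 0 allows. The 18 gamma genes beside the 4 highest held 37.6 and 37.4 counts together in NIPBLmut, against 49.0 and 31.5 in NIPBLwt, with no value above 9.15.

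By type, the 5 C-type genes together had 263 and 297 counts in NIPBLmut, against 279 and 205 in NIPBLwt. The 13 randomly chosen alpha genes had 77.0 and 101 counts in NIPBLmut, against 84.8 and 60.9 in NIPBLwt. The 12 PCDHGA genes had 90.2 and 63.3 counts in NIPBLmut, against 91.5 and 80.4 in NIPBLwt, and the 7 PCDHGB genes 13.9 and 22.4 in NIPBLmut, against 23.0 and 16.7 in NIPBLwt. In CPM the libraries of the genotypes overlapped for each of these types except PCDHGA, where both NIPBLmut values (2.67 and 1.82 CPM) were below both NIPBLwt values (2.95 and 2.69 CPM) by a narrow margin.

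Shares of a cluster do not depend on library scaling. PCDHGC4 took 17.7% and 12.4% of the gamma counts in NIPBLmut, against 4.85% and 4.13% in NIPBLwt. The 95% Wilson intervals were 13.1% to 23.3% and 8.77% to 17.2% in NIPBLmut, against 2.73% to 8.47% and 1.95% to 8.03% in NIPBLwt. These intervals cover counting error within a library only, and neither the division of shared reads nor the spread between libraries. They did not overlap between the genotypes, by a narrow margin (8.77% against 8.47%), and this is no test of the genotypes. PCDHAC2 took 62.9% and 55.0% of the alpha counts in NIPBLmut, against 55.7% and 59.6% in NIPBLwt. PCDHA11 took 13.2% and 15.7% in NIPBLmut, against 4.33% and 10.5% in NIPBLwt, and its intervals overlapped between the genotypes. PCDHAC1 took 4.26% and 4.41% in NIPBLmut, against 10.5% and 7.98% in NIPBLwt. PCDHB2 took 69.9% and 55.1% of the few beta counts in NIPBLmut, against 38.5% and 40.7% in NIPBLwt. The intervals of PCDHAC1 and of PCDHB2 also overlapped between the genotypes. For PCDHB2 they were 39.8% to 69.3% in NIPBLmut replicate 2 and 25.6% to 55.3% in NIPBLwt replicate 2. No test was run on the shares.

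**Figure D5:**
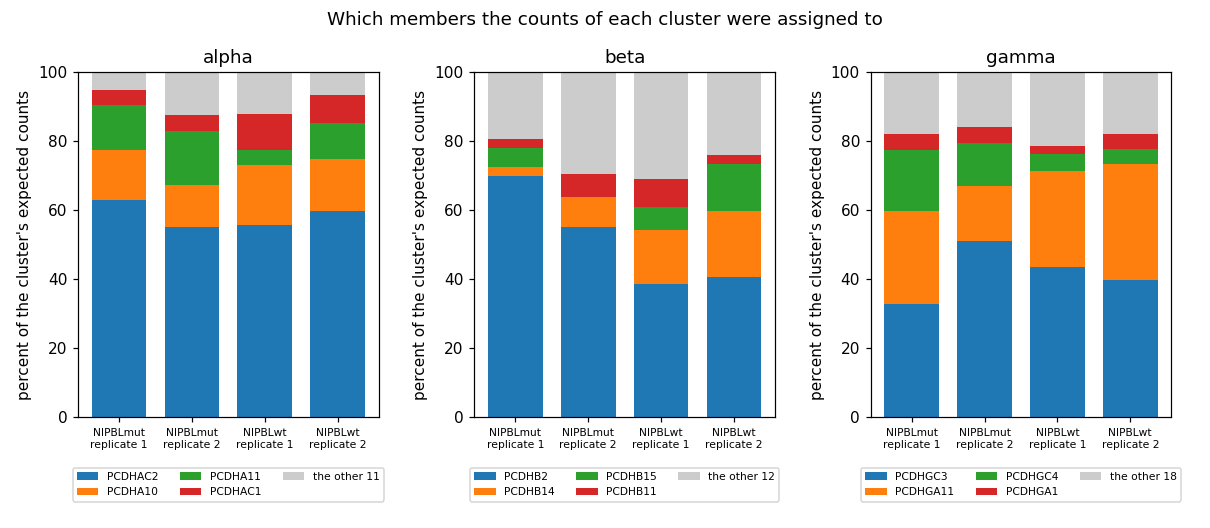
Percent of each cluster's expected counts (vertical axis) assigned to its 4 highest genes and to the rest (grey), with NIPBLmut libraries left and NIPBLwt libraries right in each panel. PCDHAC2 holds 55.0% to 62.9% of alpha in all 4 libraries, while the PCDHGC4 band in gamma is 12.4% to 17.7% in NIPBLmut and 4.13% to 4.85% in NIPBLwt.

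The promoters of most clustered protocadherins hold a conserved sequence element with the letters CGCTG at its centre, near which CTCF binds, and the element has been described as missing or altered at PCDHAC2, PCDHB1, PCDHGC4 and PCDHGC5. Promoter windows of 300 bases (RefSeq, GRCh38.p14) were at hand for 47 of the 53 members. They are printed for the gene of highest mean CPM in each cluster, and for PCDHGC4, which was chosen after its values were seen. The windows are chr5:140966226-140966525 for PCDHAC2, chr5:141094365-141094664 for PCDHB2, chr5:141475716-141476015 for PCDHGC3 and chr5:141484780-141485079 for PCDHGC4, all on the plus strand, with CGCTG in capitals.
PCDHAC2 promoter: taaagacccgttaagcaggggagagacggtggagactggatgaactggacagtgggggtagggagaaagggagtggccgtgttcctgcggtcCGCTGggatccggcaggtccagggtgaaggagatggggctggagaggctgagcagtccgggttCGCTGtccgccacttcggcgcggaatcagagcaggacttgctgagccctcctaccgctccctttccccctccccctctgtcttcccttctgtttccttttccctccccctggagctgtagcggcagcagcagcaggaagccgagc
PCDHB2 promoter: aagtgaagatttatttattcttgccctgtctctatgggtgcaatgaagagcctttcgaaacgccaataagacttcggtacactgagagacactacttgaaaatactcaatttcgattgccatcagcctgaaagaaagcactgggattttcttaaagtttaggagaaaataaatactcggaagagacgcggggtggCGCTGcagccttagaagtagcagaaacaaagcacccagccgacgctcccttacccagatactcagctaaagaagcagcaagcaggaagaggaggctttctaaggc
PCDHGC3 promoter: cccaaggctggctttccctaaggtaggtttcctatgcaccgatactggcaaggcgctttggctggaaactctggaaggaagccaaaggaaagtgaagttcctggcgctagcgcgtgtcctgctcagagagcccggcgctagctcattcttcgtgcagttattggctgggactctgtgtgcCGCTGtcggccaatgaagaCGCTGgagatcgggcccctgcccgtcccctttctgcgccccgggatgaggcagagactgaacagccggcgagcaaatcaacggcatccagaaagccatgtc
PCDHGC4 promoter: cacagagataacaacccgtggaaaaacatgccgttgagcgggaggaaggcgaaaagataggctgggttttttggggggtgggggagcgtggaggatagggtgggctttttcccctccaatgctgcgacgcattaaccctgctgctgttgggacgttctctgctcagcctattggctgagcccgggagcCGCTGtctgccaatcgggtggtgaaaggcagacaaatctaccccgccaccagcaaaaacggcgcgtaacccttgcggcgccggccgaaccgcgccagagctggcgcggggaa
The letters CGCTG, searched on both strands, were in windows of 41 of the 47 members, with 9 of 13 alpha, 12 of 14 beta and 20 of 20 gamma members. Of all 35116 windows of that length 48.0% held them, a rate per window and not per gene. Of the forms of 10 bases around those letters, the one held by most members of each cluster was also taken, after the member windows had been viewed. GATGTCGCTG was in 6 of 13 alpha members and 0.0427% of all windows, and GGTGGCGCTG in 12 of 14 beta members and 0.276% of all windows. GCGCCGCTGT was in 9 of 20 gamma members and 0.131% of all windows. Each form was found in members of 1 cluster, each contains CGCTG, and of the windows printed here the PCDHB2 window holds its cluster's form. A match describes letters, not a bound site.

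Of 25 genes listed as regulators of clustered protocadherins (among them CTCF, cohesin subunits and loaders, and silencing factors), all were tested. Of these, 0 were called by edgeR, against 5.81% of all tested genes, and 5 had an unadjusted p under 0.05, against 29.8% of all tested genes. The median log2 fold change was 0.015. NIPBL itself was at 61.0 and 62.0 CPM in NIPBLmut, against 41.8 and 44.4 CPM in NIPBLwt (log2 fold change 0.51, SE 0.11, edgeR adjusted p = 0.0570), and was called in 3 of the 9 alternatives that kept all libraries, DESeq2 among them (adjusted p = 0.0336). Without knowing the mutation, this level is no check of the labels. ZNF143, a zinc finger transcription factor, was at 12.6 and 15.3 CPM in NIPBLmut, against 23.7 and 36.3 CPM in NIPBLwt (log2 fold change -1.10, SE 0.24, edgeR adjusted p = 0.0576). It was called in 4 of those 9 alternatives, DESeq2 among them (adjusted p = 0.00063). CTCF was at 51.4 and 51.0 CPM in NIPBLmut, against 50.9 and 74.2 CPM in NIPBLwt, and its log2 fold change of -0.29 (SE 0.20, edgeR adjusted p = 0.371) rested on NIPBLwt replicate 2, being 0.0056 without it. Without NIPBLwt replicate 1 it was -0.55, in a fit whose spread comes from the NIPBLmut pair alone.

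Of 25 genes for proteins that bind, cut or signal from clustered protocadherins, all were tested and 1 was called, APH1B, against 5.81% of all tested genes. APH1B codes for a subunit of gamma-secretase, the protease that releases the inner part of protocadherins. It rose to 37.7 and 36.6 CPM in NIPBLmut, against 19.6 and 15.6 CPM in NIPBLwt (log2 fold change 1.08, SE 0.15, edgeR adjusted p = 0.0312), and was called in all 13 alternatives. The median log2 fold change over the 25 was 0.015.

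Around the clusters, 38 protein-coding genes lie within 1 Mb of either end or between them, and 33 were tested. Of these, 2 were called higher and 0 lower, against 3.71% higher and 2.1% lower over all tested genes, and the median log2 fold change was -0.028. PSD2, an exchange factor for a small GTPase, rose to 0.680 and 0.862 CPM in NIPBLmut, against 0.129 and 0.134 CPM in NIPBLwt (log2 fold change 2.52, SE 0.45, edgeR adjusted p = 0.0420), and was called in 8 of the 12 alternatives that tested it, but not by DESeq2 (adjusted p = 0.0722), on log2(TPM + 1) or without either NIPBLmut library. The NIPBLwt values of PSD2 lie near the 0.0967 and 0.100 CPM that 3 counts are worth there, so its fold change is imprecise. RELL2, a membrane protein of the RELT family, rose to 21.2 and 21.9 CPM in NIPBLmut, against 14.1 and 12.3 CPM in NIPBLwt (log2 fold change 0.70, SE 0.14, edgeR adjusted p = 0.0498). It was called in 7 of 13 alternatives, and in 5 of the 9 that kept all libraries. The call was lost with upper-quartile scaling, a filter at 1 CPM, log2(TPM + 1) and effective length offsets. It was also lost when either NIPBLmut library was left out. TAF7, a gene of the general transcription machinery that lies between the beta and gamma clusters on the other strand, had 4059 and 4370 counts in NIPBLmut, against 3010 and 3025 in NIPBLwt. Its fitted log2 fold change was 0.31, and TAF7 was not called. That single gene had more reads than the 53 protocadherins together in each library, where they summed to 483 and 523 in NIPBLmut, against 527 and 401 in NIPBLwt.

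Markers of other cell types were measured beside these values. Of 12 neuron markers, 10 were tested and 4 were called higher (STMN2, DCX, MAP2 and RBFOX3) and 0 lower, against 3.71% higher and 2.1% lower of all tested genes. The list's summed level was 215 and 199 CPM in NIPBLmut, against 225 and 223 CPM in NIPBLwt. Of 8 glia markers, 7 were tested and 1 was called higher (GFAP), with a summed level of 33.0 and 33.6 CPM in NIPBLmut, against 19.8 and 18.8 CPM in NIPBLwt. SOX10, a defining glia marker, was at 0 in every library. Of 8 fibroblast markers, 5 were tested, with 2 called higher (LUM and PDGFRB) and 1 lower (COL3A1), a summed level of 21.1 and 21.2 CPM in NIPBLmut, against 16.1 and 10.7 CPM in NIPBLwt, and COL1A2 at 0 in every library. Of 8 markers of the parent kidney line all were tested, with 1 called higher (KRT8) and 3 lower (LIN28B, VIM and NEFM), and a summed level of 652 and 613 CPM in NIPBLmut, against 896 and 1063 CPM in NIPBLwt. Median log2 fold changes of the tested markers were 0.99 for neurons (9 above 0, 1 below) and 1.36 for glia (6 above, 1 below). They were 1.31 for fibroblasts (3 above, 2 below) and -0.42 for the kidney line (2 above, 6 below). The called markers are named here because of their values. The part of these differences in the protocadherin values was not tested.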

How the data were processed

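Total RNA of 293FT cells (2 NIPBLmut and 2 NIPBLwt libraries) was sequenced after ribosomal RNA removal with a directional kit, per the labels' protocols. STAR 2.7.3a, RSEM 1.3.1 and hg38 are named in the submitters' processing notes; neither the gene annotation nor how strand was handled in counting is stated there. The authors deposited expected counts per gene, TPM values and, per the file headers, transcript-weighted length and effective length in bases as other measurements. Of the 58174 identifiers 57836 matched GENCODE release 29.

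Expected counts were rounded and tested with edgeR 4.0.16 (R 4.3.3): filterByExpr by group, TMM scaling, robust quasi-likelihood tests of NIPBLmut against NIPBLwt, Benjamini-Hochberg adjustment over 18984 tested genes, calls under 0.05. The SE of an edgeR fit was derived as the absolute log2 fold change over the square root of the F statistic of its test. Cluster sums and shares were not tested. Shared sequence was measured with 66-base windows of GENCODE transcripts, and promoters came from RefSeq. Alternatives were RLE, upper-quartile and total-count scaling, no filter or a filter at 1 CPM, DESeq2 1.42.0, limma-trend (limma 3.58.1) on log2(TPM + 1), effective length offsets, a replicate block, summed TPM, rows of any biotype and leaving out each library. The fit was tested on simulated data. Members and lists were chosen with earlier results of these data known. Values in all libraries are given for called members, the 4 of highest mean CPM per cluster and the C-type genes; of other genes, for NIPBL, CTCF and, per list, the called genes (at most 4) or the 2 of smallest p, and markers, PCDHA14, TAF7 and PCDHA12 were named outside this rule after their values were seen.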

Additional observations from a re-analysis of the deposited data

How the results depend on the processing

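No protocadherin was called in 8 of the 9 alternatives that kept all 4 libraries. The number tested was 9, but 51 without a filter and 4 at a filter of 1 CPM. The labels do not say whether the replicate numbers pair the samples, and the libraries share only a number. The correlation of same-number deviations was -0.0593. It cannot settle the pairing, because the wide spread of the NIPBLwt pair could hide a small shared part. With a replicate block, 1 gamma gene was called higher, PCDHGC4 (1.71, edgeR adjusted p = 0.0474), and the whole table gave 1470 higher and 809 lower calls, against 704 and 399 without the block. Whole-table calls were 1112 higher with total-count scaling, 1132 higher and 786 lower without a filter, 1294 and 1206 with DESeq2, and 119 lower on log2(TPM + 1). The share of higher genes among calls was 63.8%, but 80.2% under total-count scaling, 87.3% on log2(TPM + 1) and 51.8% with DESeq2. Leaving out 1 library gave 335 to 5909 higher and 64 to 5931 lower calls, 0 to 1 higher and 0 to 2 lower alpha genes, and 0 to 1 higher gamma genes. The member calls came without NIPBLwt replicate 1 (PCDHGC4, 2.01) or replicate 2 (PCDHGC4 1.43, PCDHA11 1.51, PCDHAC1 -1.44 and PCDHA12), where the spread comes from the closer NIPBLmut pair alone and the lone NIPBLwt library is assumed to vary like it. PCDHA12, not tested with all libraries, had 7 and 8 counts in NIPBLmut, against 20 in NIPBLwt replicate 1 and 6.89 in the left-out replicate 2, so that call rests on 1 library. With a NIPBLwt library left out a large part of all tested genes was called, so a call there does not set a member apart. Without 1 NIPBLmut library the spread comes from the wider NIPBLwt pair.

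Signs turned for PCDHAC2 with RLE scaling (-0.0045), no filter (-0.011), DESeq2 (-0.0044), without NIPBLwt replicate 2 (-0.13) and without NIPBLmut replicate 1 (-0.07), against 0.0035, with a range of -0.13 to 0.13 when 1 library was left out. They turned for PCDHGC3 with total counts (0.15), upper-quartile scaling (0.064), a filter at 1 CPM (0.014), log2(TPM + 1) (0.084), effective length offsets (0.033) and without NIPBLwt replicate 1 (0.21) or NIPBLmut replicate 1 (0.31), against -0.011, with a range of -0.43 to 0.31. CTCF ranged from -0.55 to 0.0056 when 1 library was left out. The log2 ratio of the cluster sums was 0.20 in summed TPM for alpha and 0.26 for beta, and -0.16 for beta with total counts. Without 1 library it ranged over -0.20 to 0.16 for alpha, -0.48 to -0.16 for beta and -0.18 to 0.14 for gamma. The cause was not tested. At this depth 43 of 53 members had under 10 counts in every library, which limits any statement on single members.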
